A study of Mus musculus with 28 samples.

Results

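The mRNA of 10 genes of hepatic glucose production and insulin response was followed in the livers of mice with nonalcoholic steatohepatitis treated with vehicle, obeticholic acid (OCA), or INT-787. They were chosen by name, and all 10 were found by their Ensembl identifiers among the 21935 genes counted. They comprised the gluconeogenic enzymes *Pck1*, *Pcx*, *Fbp1*, and *G6pc*, the glucose 6-phosphate transporter *Slc37a4*, the regulators *Ppargc1a* and *Foxo1*, and the insulin signalling genes *Insr*, *Irs1*, and *Irs2*. The 28 mice were males of the strain B6.V-Lepob/JRj, in which the leptin gene is mutated throughout the body, so that obesity and its metabolic consequences were shared by every group. The mice were 5 weeks old when obtained, received the AMLN diet, high in trans fat, fructose, and cholesterol, for 14 weeks, and stayed on it during treatment. Daily oral dosing then lasted 2 weeks. The samples held 10 vehicle mice and 9 mice for each drug, OCA and INT-787 at 30 mg/kg, with 1 liver library for each mouse. The study assigned 10 mice to each group, and why 9 remain for each drug is not given in the sources used here. Both drugs activate the farnesoid X receptor (FXR), a nuclear receptor for bile acids. No lean, chow-fed, or leptin-replete mice were among the samples, and the feeding state and the hour at which the livers were taken are not given in the sources used here.

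Gluconeogenesis rebuilds glucose from lactate, amino acids, and glycerol, and the liver relies on it between meals. Glucagon and glucocorticoids raise transcription of its enzymes, and insulin lowers it, in large part by sending the transcription factor FOXO1 out of the nucleus. Insulin acts through its receptor and the adaptor proteins IRS1 and IRS2, and *Pck1* and *G6pc* are the textbook genes of this control, usually described as rising and falling together.

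The deposited values were raw counts, with totals from 1009593 to 22421506 per mouse (median 14864947). Vehicle replicate 6 had the smallest library, the next being 9313260. In vehicle replicate 5, 24 genes that lie under an expressed gene on the opposite strand summed to 985 CPM (reads of a gene scaled to a common library size), compared with 8.62 to 22.3 CPM in the other 27 mice. Both mice were kept, and where a call named here was lost without them the adjusted p of that fit is given. Of the 10 genes, *Irs1* alone shared exon sequence with a gene on the opposite strand, and its level in vehicle replicate 5 was 15.1 CPM, inside the range of the other vehicle mice. Markers fit liver tissue, since the 10 hepatocyte markers together held 78260 to 217600 CPM per mouse and none of the markers of any cell type listed was at 0 in all mice. In bulk tissue, fewer cells of a type and less RNA per cell cannot be told apart.

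The genes did not move in 1 direction. Compared with vehicle, INT-787 raised *Pck1*, which commits carbon to glucose, 1.94-fold, while *G6pc*, which releases the finished glucose, fell to 0.511 of its vehicle level. *Slc37a4*, which feeds G6PC its substrate, rose 1.88-fold with INT-787 and 1.65-fold with OCA. *Pcx*, *Ppargc1a*, and *Irs2* also rose with INT-787, whereas *Fbp1*, *Foxo1*, *Insr*, and *Irs1* did not pass the test with either drug.

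The sequences before the transcription starts of *Pck1*, *G6pc*, and *Slc37a4* are shown because these genes moved most and not in the same direction. They are from the set of RefSeq promoters used here (GRCm38.p6), which held 9 of the 10 genes. Each covers the 250 bases before a start site on the plus strand. The region of *Pck1* is chr2:173152823-173153072, that of *G6pc* is chr11:101367466-101367715, and that of the first of 3 listed starts of *Slc37a4* is chr9:44396696-44396945. The RefSeq starts lie inside the GENCODE bounds of the genes given further on, so the end of each region overlaps the GENCODE gene. Capitals mark matches on either strand to any of 4 motifs. The letters TGACG are the short form of a cAMP response element, through which glucagon acts. The core of the insulin response sequence, to which FOXO proteins bind, was searched as CAAAACA. The core site of many nuclear receptors was searched as AGGTCA, and the TATA box, which positions the polymerase, by the letters TATAAA.
Pck1: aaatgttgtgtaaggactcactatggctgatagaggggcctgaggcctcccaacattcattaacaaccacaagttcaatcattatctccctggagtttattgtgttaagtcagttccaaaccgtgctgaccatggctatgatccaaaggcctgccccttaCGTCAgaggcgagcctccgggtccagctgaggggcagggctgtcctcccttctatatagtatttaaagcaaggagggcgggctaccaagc
G6pc: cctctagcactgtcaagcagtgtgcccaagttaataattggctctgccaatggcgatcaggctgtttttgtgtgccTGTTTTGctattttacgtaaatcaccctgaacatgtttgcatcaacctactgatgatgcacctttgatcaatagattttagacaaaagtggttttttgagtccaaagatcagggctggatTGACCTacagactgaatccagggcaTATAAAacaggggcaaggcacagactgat
Slc37a4: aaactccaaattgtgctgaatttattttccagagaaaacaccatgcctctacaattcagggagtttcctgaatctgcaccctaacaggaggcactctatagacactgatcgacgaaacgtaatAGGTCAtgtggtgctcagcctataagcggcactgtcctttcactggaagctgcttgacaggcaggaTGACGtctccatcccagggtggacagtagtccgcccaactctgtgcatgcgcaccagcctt
In *Pck1* the capitals are a short cAMP element on the opposite strand that begins 90 bases before the start, in the letters cgtca. *G6pc* held no such element, and instead had an insulin response core at 174 bases, a nuclear receptor core site at 54 bases, and a TATA box at 29 bases before the start. *Slc37a4* held a short cAMP element at 61 bases and a nuclear receptor core site at 127 bases. Such short strings are common. In the table's windows of 300 bases, which add the 50 bases after the start, the short cAMP element was present in 20.8% of 32851, the insulin response core in 6.28%, the nuclear receptor core site in 16.3%, and the TATA box in 13.6%. The full cAMP element TGACGTCA, present in 1.79% of windows and containing the short one, matched no window of these genes. Nor did the forkhead core, spelled GTAAACA, which 3.65% of windows held. Across the 12 windows of the 9 genes, the insulin response core was also found in *Irs1*, at 111 and 32 bases before the start, and in *Irs2*, at 37 bases, and the short cAMP element in *Ppargc1a* and *Irs1*. A nuclear receptor core site began 40 bases after the start in *Pcx*. The windows of the other two *Slc37a4* starts held a second short cAMP element, at 82 bases before the start, and a TATA box at 32 bases, so a TATA box was found for both *G6pc* and *Slc37a4*. These are matches of letters only, and binding was not measured.

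In vehicle-treated livers, mRNA levels per kilobase of exon spanned a wide range. The length is that of all annotated exons of a gene together, not of the transcript expressed, so the order of genes depends on it. Before division by length, mean CPM was 943 for *Fbp1* and 981 for *Pck1*. *Fbp1* was highest, at 554 ± 48.6 CPM per kilobase (SD, n = 10), followed by *Pck1* at 286 ± 126 and *Pcx* at 219 ± 43.8. *G6pc* (45.3 ± 16.1) and *Slc37a4* (43.2 ± 15.3) stood well under these enzymes at levels that could not be ranked, with *G6pc* the higher in 6 of 10 mice. *Insr* (8.03 ± 2.15) and *Foxo1* (7.42 ± 1.94) also overlapped, then came *Irs2* (3.13 ± 0.503), and *Irs1* (1.52 ± 0.329) and *Ppargc1a* (1.33 ± 0.479) had the lowest means. The ranges of *Fbp1* and *Pck1*, of *Pck1* and *Pcx*, and of *Irs1* and *Ppargc1a* overlapped as well, although *Fbp1* exceeded *Pck1* in 10 of 10 mice. Those of *Pcx* and *G6pc*, *Slc37a4* and *Insr*, *Foxo1* and *Irs2*, and *Irs2* and *Irs1* did not overlap.

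**Figure D1:**
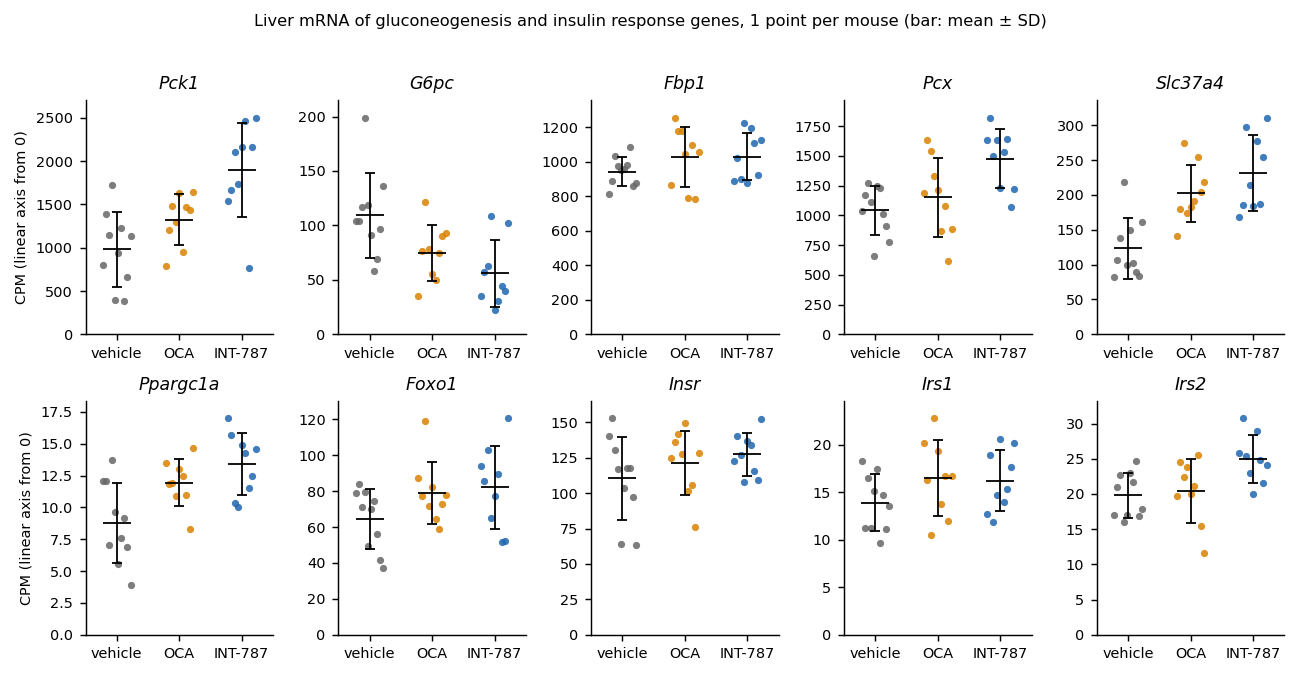
mRNA level of the 10 genes in CPM (linear axes from 0), with 1 point per mouse for vehicle (n = 10), OCA (n = 9), and INT-787 (n = 9), and bars for mean ± SD. *Pck1*, *Pcx*, *Slc37a4*, *Ppargc1a*, and *Irs2* sit higher and *G6pc* lower with INT-787 than with vehicle, and the ranges of the groups overlap in every panel.

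*Pck1* (ENSMUSG00000027513, GRCm38 chr2:173153048-173159273, plus strand) encodes the cytosolic phosphoenolpyruvate carboxykinase, which turns oxaloacetate into phosphoenolpyruvate. Its level in vehicle mice ran from 383 to 1724 CPM with a median of 1040. OCA mice ran from 794 to 1648 (median 1434) and INT-787 mice from 765 to 2502 (median 2110). Of 9 INT-787 mice, 6 were above the highest vehicle mouse, whereas none of the OCA mice was, and 1 INT-787 mouse, replicate 7, was the lowest treated mouse of all. *Pck1* rose with INT-787 by 0.95 on the log2 scale (SE 0.23, 95% confidence interval 0.50 to 1.41, adjusted p = 0.0026). With OCA the difference from vehicle was 0.43 (SE 0.22, interval -0.02 to 0.89, adjusted p = 0.30).

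*Pcx* (ENSMUSG00000024892, chr19:4510472-4621752, plus strand) encodes pyruvate carboxylase, the mitochondrial enzyme that makes the oxaloacetate used by PCK1. Vehicle mice ran from 655 to 1271 CPM (median 1071), OCA mice from 615 to 1637 (median 1190), and INT-787 mice from 1066 to 1821 (median 1536). INT-787 placed 6 of 9 mice above every vehicle mouse, and the OCA mice spread to both sides of the vehicle range. *Pcx* rose by 0.50 with INT-787 (SE 0.15, interval 0.20 to 0.80, adjusted p = 0.015) and differed by 0.14 with OCA (interval -0.16 to 0.44, adjusted p = 0.68).

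*Fbp1* (ENSMUSG00000069805, chr13:62864753-62888282, minus strand) encodes the liver fructose bisphosphatase, which acts between PCK1 and G6PC in the pathway. It was the steadiest of the 10 genes, with a mean coefficient of variation within groups of 13.04%, lower than that of most genes. Vehicle mice ran from 813 to 1084 CPM (median 956), OCA mice from 784 to 1256 (median 1055), and INT-787 mice from 879 to 1222 (median 1022). Differences from vehicle were 0.13 with INT-787 (interval -0.07 to 0.32, adjusted p = 0.39) and 0.12 with OCA (interval -0.07 to 0.32, adjusted p = 0.55), so the enzyme between the genes that moved did not pass the test.

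*G6pc* (ENSMUSG00000078650, chr11:101367561-101377903, plus strand) encodes the catalytic subunit of glucose-6-phosphatase, the last step of both gluconeogenesis and glycogen breakdown. In vehicle mice it ran from 58.5 to 199 CPM (median 104). With OCA the range was 35.4 to 121 (median 76.2), and with INT-787 it was 22.8 to 109 (median 44.4). Of the INT-787 mice 6 of 9 were below the lowest vehicle mouse, as were 3 of 9 OCA mice, while 1 mouse of each drug stayed above the vehicle median. *G6pc* fell by 0.97 on the log2 scale with INT-787 (SE 0.25, interval -1.49 to -0.45, adjusted p = 0.0064). The OCA difference was -0.55 (SE 0.25, interval -1.06 to -0.04), with p = 0.037 before and 0.23 after adjustment. It was also the most variable of the 10 genes, with a mean coefficient of variation of 41.6% within groups, above that of 89.7% of the genes tested.

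*Slc37a4* (ENSMUSG00000032114, chr9:44396852-44402968, plus strand) encodes the transporter that brings glucose 6-phosphate into the endoplasmic reticulum, where G6PC acts on it. Vehicle mice ran from 81.8 to 219 CPM (median 105), OCA mice from 142 to 274 (median 191), and INT-787 mice from 169 to 311 (median 215). All 9 mice of each drug were above the vehicle median, and 2 OCA and 4 INT-787 mice were above the highest vehicle mouse. The rise was 0.91 with INT-787 (SE 0.16, interval 0.58 to 1.25, adjusted p = 0.00012) and 0.72 with OCA (SE 0.16, interval 0.39 to 1.06, adjusted p = 0.0044), the only call among the 10 genes for OCA.

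Of the regulators, *Ppargc1a* (ENSMUSG00000029167, chr5:51454250-51567726, minus strand) encodes a coactivator that works with FOXO1 and other factors on gluconeogenic promoters. Vehicle mice ran from 3.88 to 13.7 CPM (median 8.40), and the smallest library, vehicle replicate 6, held 6 counts of it (5.52 CPM). OCA mice ran from 8.31 to 14.6 (median 11.9) and INT-787 mice from 10.1 to 17.01 (median 14.3), and all 9 INT-787 mice were above the vehicle median. *Ppargc1a* rose with INT-787 by 0.58 (SE 0.16, interval 0.26 to 0.91, adjusted p = 0.0091). The OCA difference was 0.42 (SE 0.16, interval 0.09 to 0.74), with p = 0.014 before and 0.13 after adjustment.

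*Foxo1* (ENSMUSG00000044167, chr3:52268336-52353221, plus strand) encodes the forkhead factor itself. Vehicle mice ran from 37.4 to 84.1 CPM (median 70.6), OCA mice from 58.9 to 119 (median 77.2), and INT-787 mice from 51.6 to 121 (median 85.8). With INT-787, 5 of 9 mice exceeded the vehicle range, with the others spread through it. The differences of 0.36 with INT-787 (interval 0.03 to 0.68, p = 0.034, adjusted p = 0.12) and 0.30 with OCA (interval -0.03 to 0.63, adjusted p = 0.33) did not pass after adjustment. These are mRNA levels and do not measure where the protein was in the cell.

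*Insr* (ENSMUSG00000005534, chr8:3122061-3279617, minus strand) encodes the insulin receptor. Levels in vehicle mice were 63.3 to 153 CPM (median 117), in OCA mice 76.3 to 150 (median 128), and in INT-787 mice 108 to 153 (median 127). No treated mouse left the vehicle range in either direction. The differences from vehicle were 0.20 with INT-787 (interval -0.07 to 0.48, adjusted p = 0.32) and 0.13 with OCA (interval -0.15 to 0.41, adjusted p = 0.69).

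Of the adaptors, *Irs1* (ENSMUSG00000055980, chr1:82233101-82291416, minus strand) had 9.62 to 18.3 CPM in vehicle mice (median 14.2), 10.5 to 22.8 in OCA mice (median 16.7), and 11.9 to 20.6 in INT-787 mice (median 15.4). The groups overlapped broadly, with 3 mice of each drug above the vehicle range. Its differences were 0.25 with INT-787 (interval -0.04 to 0.54, adjusted p = 0.23) and 0.26 with OCA (interval -0.03 to 0.55, adjusted p = 0.33).

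*Irs2* (ENSMUSG00000038894, chr8:10984681-11008458, minus strand) is the adaptor that FOXO1 itself induces in liver, so that its transcription is high when insulin is low. Vehicle mice ran from 16.1 to 24.8 CPM (median 19.5), OCA mice from 11.6 to 25.5 (median 21.2), and INT-787 mice from 19.99 to 30.8 (median 24.8). All 9 INT-787 mice were above the vehicle median, whereas the OCA mice spread beyond the vehicle range on both sides. *Irs2* rose with INT-787 by 0.34 (SE 0.12, interval 0.10 to 0.58, adjusted p = 0.041), and differed by 0.05 with OCA (interval -0.19 to 0.30, adjusted p = 0.89). This call was near the threshold. It was kept under 8 of 12 other ways of fitting the counts and in 17 of 28 fits that left out 1 mouse, over which its log2 difference stayed between 0.30 and 0.39 and its adjusted p ran from 0.0164 to 0.0837. Without vehicle replicates 5 and 6 its adjusted p was 0.0669, and with all libraries thinned to the smallest total the difference was 0.17 (adjusted p = 0.649).

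In total, INT-787 changed 6 of the 10 genes compared with vehicle, 5 upward and 1 downward, where 19.6% of all 12580 genes tested were called (10.2% higher and 9.48% lower). OCA changed 1 gene, upward, where 6.60% of all genes were called (4.15% higher and 2.45% lower). The median log2 difference of the 10 genes was 0.35 with INT-787 and 0.20 with OCA, beside -0.001 and 0.02 over all genes. Both comparisons used the same vehicle mice. The INT-787 calls of *Pck1*, *G6pc*, *Pcx*, and *Slc37a4* held under all 12 other fits and all 28 fits without 1 mouse, and that of *Ppargc1a* under 11 of 11 and 28 of 28, because a filter of at least 10 counts in every mouse removed it from 1 fit. All 10 genes passed the count filter used here, and each had at least 1 count in every mouse.

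**Figure D2:**
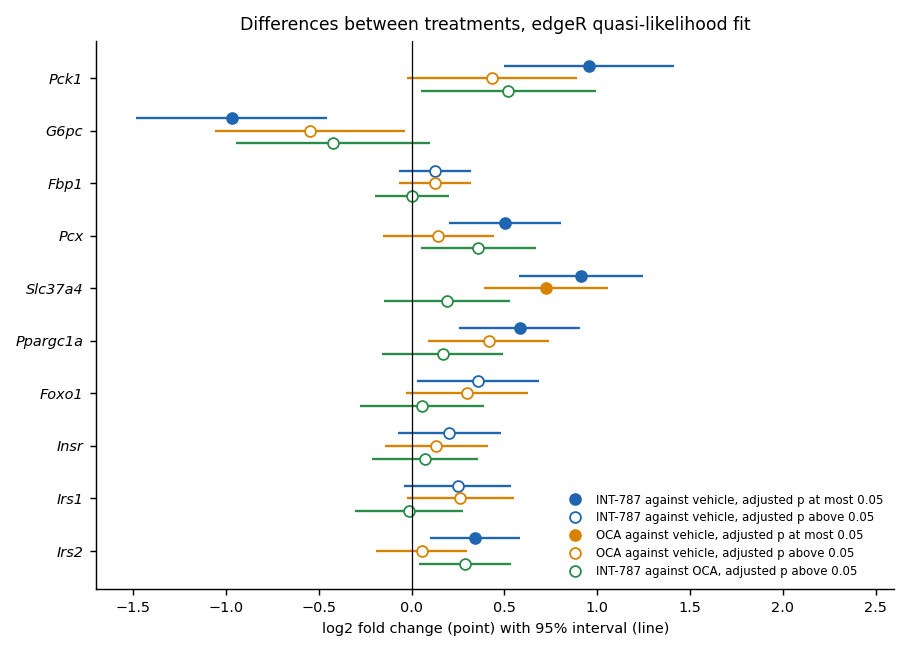
Log2 fold change of each gene (points) with its 95% confidence interval (lines) for each drug against vehicle and for INT-787 against OCA. Filled points passed an adjusted p of 0.05 and open points did not: 6 genes are filled for INT-787, *Slc37a4* alone for OCA, and none for the direct comparison of the drugs.

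At the matched dose of 30 mg/kg, the drugs did not separate on any of the 10 genes by edgeR (0 of 10, where 5.38% of all genes were called), although 3 had an unadjusted p under 0.05. These were *Pck1*, higher with INT-787 by 0.52 (interval 0.05 to 0.99, p = 0.031, adjusted p = 0.20), *Pcx*, higher by 0.36 (interval 0.05 to 0.67, p = 0.024, adjusted p = 0.18), and *Irs2*, higher by 0.29 (interval 0.04 to 0.53, p = 0.023, adjusted p = 0.17). DESeq2 fitted on those groups alone called 1 gene, *Pck1* (0.53, adjusted p = 0.0465), whereas DESeq2 on all 3 groups and limma-voom called 0. Of INT-787 mice, 7 of 9 had more *Pck1* than the highest OCA mouse and 1 had less than the lowest. For *G6pc* the direct difference was -0.42 with an interval from -0.94 to 0.10, for *Slc37a4* 0.19 (-0.15 to 0.53), and for *Ppargc1a* 0.17 (-0.16 to 0.49). The interval was narrowest for *Fbp1*, from -0.20 to 0.20 around a difference of 0.0031, whose sign turned under some other fits, as did those of *Foxo1* (0.06, interval -0.28 to 0.39) and *Irs1* (-0.01, interval -0.30 to 0.28). *Insr* differed by 0.07 (interval -0.21 to 0.36). With intervals of this width, none of these comparisons shows that the drugs act alike.

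Because *Pck1* and *G6pc* are usually described as moving together, they were set against each other within each mouse. The log2 ratio of *Pck1* to *G6pc* counts was 1.75 to 4.40 in vehicle mice (median 3.09), 3.62 to 4.87 in OCA mice (median 4.15), and 3.99 to 6.57 in INT-787 mice (median 5.07). The ratio was above the vehicle median in all 9 mice of each drug, and above the highest vehicle mouse in 7 INT-787 and 2 OCA mice. With *Pck1* above and *G6pc* below its vehicle median were 1 of 10 vehicle, 6 of 9 OCA, and 7 of 9 INT-787 mice. The transporter and the phosphatase separated more completely: the log2 ratio of *Slc37a4* to *G6pc* was -0.34 to 0.81 in vehicle mice (median 0.19), 1.15 to 2.00 in OCA mice (median 1.24), and 0.98 to 3.18 in INT-787 mice (median 2.24). All 9 OCA mice and all 9 INT-787 mice therefore exceeded every vehicle mouse. By contrast, the ratio of *Pck1* to *Slc37a4* overlapped across groups, with means of 2.91 ± 0.56 for vehicle, 2.70 ± 0.27 for OCA, and 3.01 ± 0.42 for INT-787 (SD). The ratios were chosen after the values of these genes were known and are given as a description without a test.

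**Figure D3:**
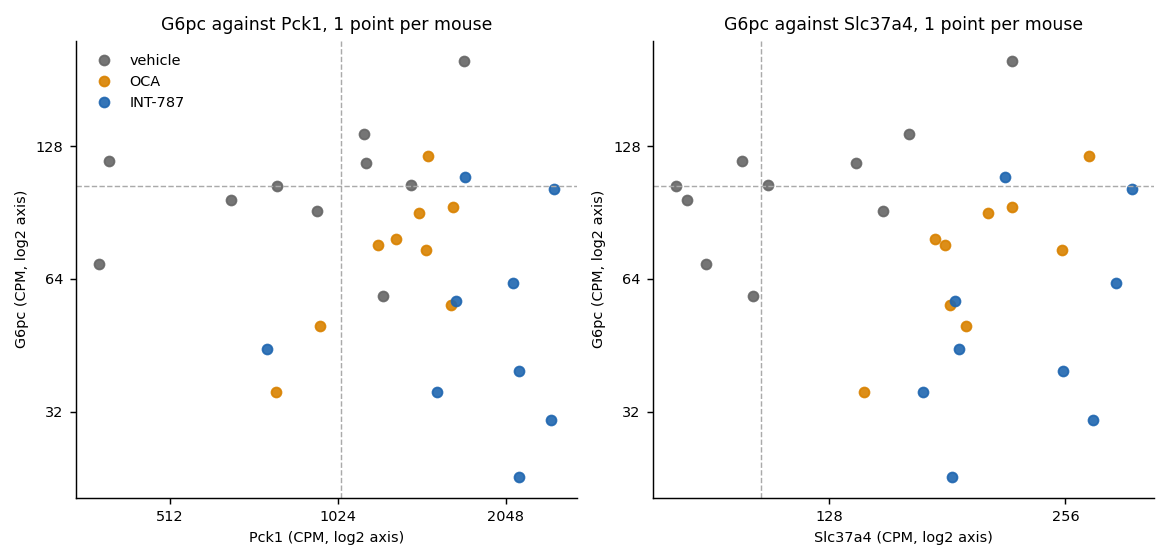
*G6pc* against *Pck1* (left) and against *Slc37a4* (right), in CPM on log2 axes, with 1 point per mouse and dashed lines at the vehicle medians. Of the 9 INT-787 mice, 7 lie to the lower right of both vehicle medians in the left panel. In the right panel every treated mouse has a higher ratio of *Slc37a4* to *G6pc* than any vehicle mouse.

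Among mice given the same treatment, the genes did not vary as 1 block. After the group means were removed from log2 CPM, 7 of 45 pairs correlated over the 28 mice (permutation test within groups, two-sided, adjusted over 45 pairs), all positively. Pairs of other genes were not tested in this way. Neither the count nor the shared sign is therefore shown to be particular to these genes. *Pck1* and *G6pc* were not among the 7 pairs. Their r was 0.292 (permutation p = 0.134, adjusted p = 0.432; rho 0.249, p = 0.205), and within groups r was 0.382 for vehicle, 0.754 for OCA, and 0.0316 for INT-787 mice. *Slc37a4* on the other hand correlated with both, with r = 0.641 for *Pck1* (permutation p = 0.00095, adjusted p = 0.0142; rho 0.642, p = 0.00089) and r = 0.556 for *G6pc* (permutation p = 0.00219, adjusted p = 0.0197; rho 0.556, p = 0.00339). Without the 2 mice farthest from the median of the first gene of each pair, r was 0.642 and 0.614. Within the groups, r of *Slc37a4* with *Pck1* was 0.651, 0.664, and 0.614, and with *G6pc* 0.675, 0.781, and 0.387 for vehicle, OCA, and INT-787, respectively. Thus *G6pc* and *Slc37a4* varied together from mouse to mouse inside a group while their group means moved apart.

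The insulin receptor joined a second set of pairs. *Foxo1* and *Insr* had the highest r, 0.696 (permutation p = 2e-05, adjusted p = 0.0009; rho 0.712, p = 2e-05), and 0.637 without the farthest 2 mice. *Pcx* correlated with *Insr* (r = 0.677, permutation p = 0.00022, adjusted p = 0.00495; rho 0.552, p = 0.00383) and with *Irs2* (r = 0.638, permutation p = 0.00136, adjusted p = 0.0153; rho 0.622, p = 0.00103). Without OCA replicate 8 and vehicle replicate 5 these were 0.469 and 0.591, and within INT-787 mice *Pcx* and *Insr* had r = -0.0481. *Ppargc1a* and *Insr* (r = 0.582, permutation p = 0.00676, adjusted p = 0.0435) lost the call by rank, with rho 0.473 (p = 0.0192, adjusted p = 0.106), and had r = 0.451 without the farthest 2. *Fbp1* and *Pcx* (r = 0.561, permutation p = 0.00545, adjusted p = 0.0409; rho 0.505, p = 0.0102, adjusted p = 0.0735) also lost the call by rank and rested on OCA replicates 8 and 6, without which r was 0.357 (permutation p = 0.0781).

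**Figure D4:**
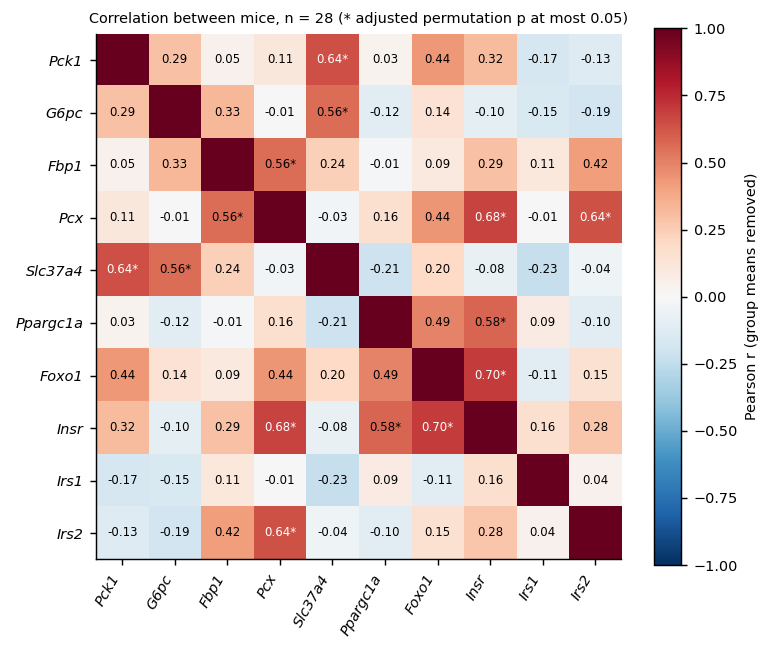
Pearson correlation (color scale from -1 to 1) of each pair of the 10 genes over 28 mice, from log2 CPM with the group means removed, with stars at an adjusted permutation p of at most 0.05. The 7 starred pairs are all positive, and the highest is *Foxo1* with *Insr* at 0.70. Pairs of other genes were not tested.

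Genes elsewhere in the genome were ranked by how closely they followed *Pck1* or *G6pc* from mouse to mouse. Over the 28 mice, with group means removed and among 9355 genes of at least 5 CPM, the highest correlations with *Pck1* were those of *St3gal5* (r = 0.897), *Fkbp5* (0.860), *Por* (0.821), *Fam169b* (0.809), and *Alas1* (0.802). *Fkbp5* is a classical glucocorticoid-induced gene, *Por* encodes the electron donor of the cytochromes P450, and *Alas1* the first enzyme of heme synthesis. The lowest were *Btc* (-0.799), *Cldn1* (-0.785), and *Fam149a* (-0.784). For *G6pc* the highest were *Slc25a20* (0.697), the mitochondrial carnitine carrier, *Elmod3* (0.673), *Abhd6* (0.644), *Tsta3* (0.629), and *Coq4* (0.621), with *Tbcel* (-0.652), *Insig1* (-0.616), and *Supt20* (-0.578) lowest. These are given without p because they are extremes of many genes that share the same libraries.

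Around the 10 genes, 158 other genes of glucose metabolism and its control were examined in 8 lists that share a few genes, each gene being counted once, and 157 were tested. With INT-787, 42 of 157 (26.8%) were called compared with vehicle, 35 higher and 7 lower, and with OCA 16 (10.2%), 14 higher and 2 lower. These shares stood beside 19.6% and 6.60% of all genes. Of the calls over all genes, 51.7% with INT-787 and 62.9% with OCA were higher. With upper-quartile scaling these were 37.5% and 52.3%, so the balance of directions depends on the scaling. Between the drugs 4 were called, 2 in each direction (2.55%, beside 5.38%).

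Among other enzymes and carriers of gluconeogenesis, calls were mostly upward. With INT-787, 8 of 26 rose and 1 fell (34.6%, beside 19.6% of all genes). With OCA 3 rose (11.5%, beside 6.6%), and the medians were 0.02 and 0.02. *Sds*, serine dehydratase, which makes pyruvate from serine, stood at 93.9 ± 37.7 CPM in vehicle, 192 ± 96.3 in INT-787, and 180 ± 79.1 in OCA mice, rises of 1.03 (adjusted p = 0.0052) and 0.94 (adjusted p = 0.024). *Tat*, tyrosine aminotransferase, rose by 0.75 (adjusted p = 0.0017) and 0.61 (adjusted p = 0.023). For OCA these calls were lost without vehicle replicates 5 and 6 (adjusted p = 0.0723 and 0.0636) and, respectively, without OCA replicate 7 (0.0759) and OCA replicate 9 (0.0753). *Gpt*, the alanine aminotransferase, and *Mdh1*, the cytosolic malate dehydrogenase that supplies oxaloacetate to PCK1, rose with INT-787 by 0.67 (adjusted p = 5.8e-05) and 0.60 (adjusted p = 0.0002), with OCA differences of 0.32 (adjusted p = 0.091) and 0.28 (adjusted p = 0.14). *Ldhb* was the 1 gene that fell with INT-787, by 0.53 (adjusted p = 0.02). *Pck2*, the mitochondrial form of the carboxykinase, rose with OCA by 0.36 (adjusted p = 0.025), differed by -0.18 with INT-787 (adjusted p = 0.25), and was lower with INT-787 than with OCA by 0.54 (adjusted p = 0.0016). The OCA call of *Pck2* was kept in 7 of 12 other fits, and was lost without vehicle replicates 5 and 6 (adjusted p = 0.0679), OCA replicate 7 (0.0514), or OCA replicate 8 (0.0568). After thinning to the smallest total the *Pck2* difference was 0.40 for OCA (adjusted p = 0.282) and -0.64 between the drugs (adjusted p = 0.0731), neither smaller than before thinning.

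Genes of glucose entry and its first steps included the lowest adjusted p of the 157 genes, that of *Slc2a2*. Of 12 glycolysis and glucokinase genes, 4 rose with INT-787 and none fell (33.3%, beside 19.6% of all genes). With OCA 2 rose and 1 fell (25%, beside 6.6%). *Slc2a2*, the liver glucose transporter, had 579 ± 68.4 CPM in vehicle, 906 ± 131 in OCA, and 1131 ± 140 in INT-787 mice. It rose by 0.97 with INT-787 (adjusted p = 2.1e-09) and by 0.65 with OCA (adjusted p = 1.3e-05), and was higher with INT-787 than with OCA by 0.32 (adjusted p = 0.041), a call kept in 9 of 12 other fits and in 18 of 28 without 1 mouse (adjusted p up to 0.0953), and lost after thinning (0.128). *Gckr*, the inhibitor of glucokinase, rose by 0.56 (adjusted p = 0.00011) and 0.32 (adjusted p = 0.044), and *Khk*, the kinase that starts fructose breakdown, by 0.67 with INT-787 (adjusted p = 0.0007) beside an OCA difference of 0.44 (adjusted p = 0.052). The OCA call of *Gckr* was kept in 6 of 12 other fits and 14 of 28 without 1 mouse, and its adjusted p was 0.0874 without vehicle replicates 5 and 6, whereas *Khk* passed with OCA in 4 of 12 other fits. *Pdk4*, a kinase that blocks pyruvate oxidation and is induced by fasting, fell with OCA by 0.96 (adjusted p = 0.0027) and differed by -0.36 with INT-787 (adjusted p = 0.22). The direct difference for *Pdk4* did not pass the test (0.59, adjusted p = 0.094), although 3 of 11 other fits called it, with limma-voom the lowest (0.71, adjusted p = 0.029), as did 2 of 28 fits without 1 mouse.

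In the glycogen list, 4 of 15 rose and 1 fell with INT-787 (33.3%, beside 19.6% of all genes). With OCA 1 rose and 1 fell (13.3%, beside 6.6%). *Ppp1r3c* and *Ppp1r3g* both encode subunits that target protein phosphatase to glycogen, and they went opposite ways. *Ppp1r3c* rose by 0.78 with INT-787 (adjusted p = 0.014, and 0.0513 without INT-787 replicate 7) and 0.86 with OCA (adjusted p = 0.017). *Ppp1r3g* was low, at 4.44 ± 1.94 CPM in vehicle, 2.33 ± 0.941 in INT-787, and 1.06 ± 0.701 in OCA mice, and fell by 0.95 (adjusted p = 0.024) and 2.15 (adjusted p = 3.7e-05), the deeper fall being with OCA (direct difference 1.20, adjusted p = 0.03). The INT-787 call of *Ppp1r3g* was lost without vehicle replicate 2 (adjusted p = 0.0512) or INT-787 replicate 7 (0.051), and the direct call was kept in 22 of 28 fits without 1 mouse (adjusted p up to 0.0677). *Pygl*, the liver glycogen phosphorylase, and *Ugp2*, which makes the sugar donor for glycogen, rose with INT-787 by 0.38 (adjusted p = 0.033) and 0.33 (adjusted p = 0.027). Both calls were near the threshold, each being kept in 9 of 12 other fits and in 22 and 25 of 28 without 1 mouse (adjusted p up to 0.0698 and 0.0636), and without vehicle replicates 5 and 6 their adjusted p was 0.0786 and 0.0666. After thinning it was 0.125 and 0.0846, and for *Ppp1r3c* it was 0.0596 with INT-787 and 0.0529 with OCA.

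In the list of insulin receptor signalling, 5 of 31 genes rose and 2 fell with INT-787, a called share of 22.6% beside 19.6% of all genes. With OCA 0 of 31 were called by edgeR, although 5 had an unadjusted p under 0.05, and DESeq2 called 1 and limma-voom 0. The risers with INT-787 were *Trib3*, an inhibitor of AKT (0.57, adjusted p = 0.014), *Ceacam1*, which promotes insulin clearance (0.55, adjusted p = 0.0005), *Tsc1*, a brake on mTORC1 (0.46, adjusted p = 0.01), *Shc1* (0.33, adjusted p = 0.0021), and *Grb14*, an inhibitor of the receptor (0.24, adjusted p = 0.0086). *Grb10*, a related adaptor inhibitor, fell by 0.63 (adjusted p = 0.027), as did *Ptpn1*, the phosphatase that removes the receptor's activating phosphates, by 0.26 (adjusted p = 0.028). The *Grb10* call was lost without vehicle replicate 7 (adjusted p = 0.0569) or INT-787 replicate 8 (0.0525), and that of *Ptpn1* without vehicle replicate 9 (0.0522), INT-787 replicate 7 (0.0586), or INT-787 replicate 9 (0.0504). With all libraries thinned to the smallest total, the calls of *Trib3* (0.38, adjusted p = 0.342), *Tsc1* (0.35, adjusted p = 0.264), *Shc1* (adjusted p = 0.196), *Grb14* (adjusted p = 0.112), and *Ptpn1* (0.15 lower, adjusted p = 0.637) were lost as well. *Grb10* was lower with INT-787 than with OCA by 0.79 (adjusted p = 0.019), a call lost without OCA replicate 8 (0.61 lower, adjusted p = 0.0646).

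Upstream regulators of gluconeogenic transcription rose with INT-787 in 9 of 39 cases and fell in 3 (30.8%, beside 19.6% of all genes). With OCA 5 rose (12.8%, beside 6.6%). *Nr0b2* (SHP), the repressor that FXR induces, was at 21.2 ± 8.59 CPM in vehicle, 47.6 ± 11.4 in OCA, and 65.0 ± 14.9 in INT-787 mice, rises of 1.17 (adjusted p = 0.0001) and 1.62 (adjusted p = 2e-07). *Foxo3* rose by 0.79 with INT-787 (adjusted p = 2e-05) and 0.50 with OCA (adjusted p = 0.01), and *Klf15*, a factor of amino acid catabolism and gluconeogenesis, by 0.51 (adjusted p = 0.00052) and 0.52 (adjusted p = 0.001). The glucagon receptor gene *Gcgr* rose with INT-787 by 0.48 (adjusted p = 5.4e-05), and *Crtc2*, the glucagon-responsive coactivator of CREB, by 0.37 (adjusted p = 0.037). The *Crtc2* call was kept in 7 of 12 other fits and 18 of 28 without 1 mouse (adjusted p up to 0.0711), and was lost without vehicle replicates 5 and 6 (0.0534) and after thinning (0.445). *Onecut1* fell by 1.57 (adjusted p = 0.0071), and *Foxa1* and *Prkaa1*, a catalytic subunit of AMPK, fell by 0.39 (adjusted p = 0.021) and 0.32 (adjusted p = 0.0071), calls lost after thinning (adjusted p = 0.318 and 0.47). Between the drugs 0 of 39 were called by edgeR, with 6 at an unadjusted p under 0.05, while DESeq2 called 1 on 3 groups and 3 on those groups alone, and limma-voom 0.

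Of 18 other genes that insulin or FOXO1 control, 2 rose with INT-787 (*Klf15* and *Bcl6*, 11.1% beside 19.6% of all genes), and with OCA 3 rose and 1 fell (22.2% beside 6.60%). The medians were 0.01 and 0.08. *Bcl6*, at 1.12 with INT-787 (adjusted p = 0.046), kept its call under 4 of 12 other fits and in 14 of 28 without 1 mouse (adjusted p up to 0.127), and had an adjusted p of 0.187 after thinning. *Angptl8* and *Srebf1*, both induced by insulin and feeding, rose with OCA by 0.85 (adjusted p = 0.034) and 0.43 (adjusted p = 0.017) and had differences of 0.61 (adjusted p = 0.084) and 0.29 (adjusted p = 0.077) with INT-787. The OCA call of *Angptl8* was kept in 9 of 12 other fits and 20 of 28 without 1 mouse (adjusted p up to 0.0823), and its adjusted p was 0.0574 without vehicle replicates 5 and 6 and 0.0985 after thinning. *Igfbp1*, which insulin represses through FOXO1, differed by -0.22 with INT-787 (adjusted p = 0.56) and -0.64 with OCA (adjusted p = 0.098), where 3 of 12 other fits called it lower. Of the 12 fasting genes, *Sds* and *Tat* rose with INT-787 (16.7%, beside 19.6% of all genes). With OCA these rose and *Pdk4* fell (25%, beside 6.60%). All 3 are counted in other lists above, and the medians were -0.12 and -0.21. Between the drugs 0 of 18 and 0 of 12 were called by edgeR, with 2 of each at an unadjusted p under 0.05, and limma-voom and DESeq2 on those groups each called 1 of each.

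Circadian genes were examined because *Pck1* and *G6pc* follow the clock and the hour of sampling is not given. With INT-787, 4 of 14 rose, *Per3* by 0.96 (adjusted p = 0.014), *Per2* by 0.94 (adjusted p = 0.0016), *Tef* by 0.69 (adjusted p = 0.0084), and *Cry2* by 0.60 (adjusted p = 0.00051), and *Tef* rose by 0.61 with OCA (adjusted p = 0.04). The *Per3* call was kept in 9 of 11 other fits, with an adjusted p of 0.108 after thinning. The OCA call of *Tef* was kept in 8 of 12 other fits and 17 of 28 without 1 mouse (adjusted p up to 0.0735), and its adjusted p was 0.0633 without vehicle replicates 5 and 6 and 0.0725 after thinning. The called shares were 28.6% and 7.14%, beside 19.6% and 6.6% of all genes, and the medians were 0.48 and 0.34. *Arntl*, at the opposite phase of the clock, differed by -0.55 (interval -1.37 to 0.27) and -0.45 (interval -1.27 to 0.37). Between the drugs 0 of 14 were called by edgeR, DESeq2, or limma-voom, and 0 had an unadjusted p under 0.05. The part of these changes in those of the 10 genes was not tested.

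**Figure D5:**
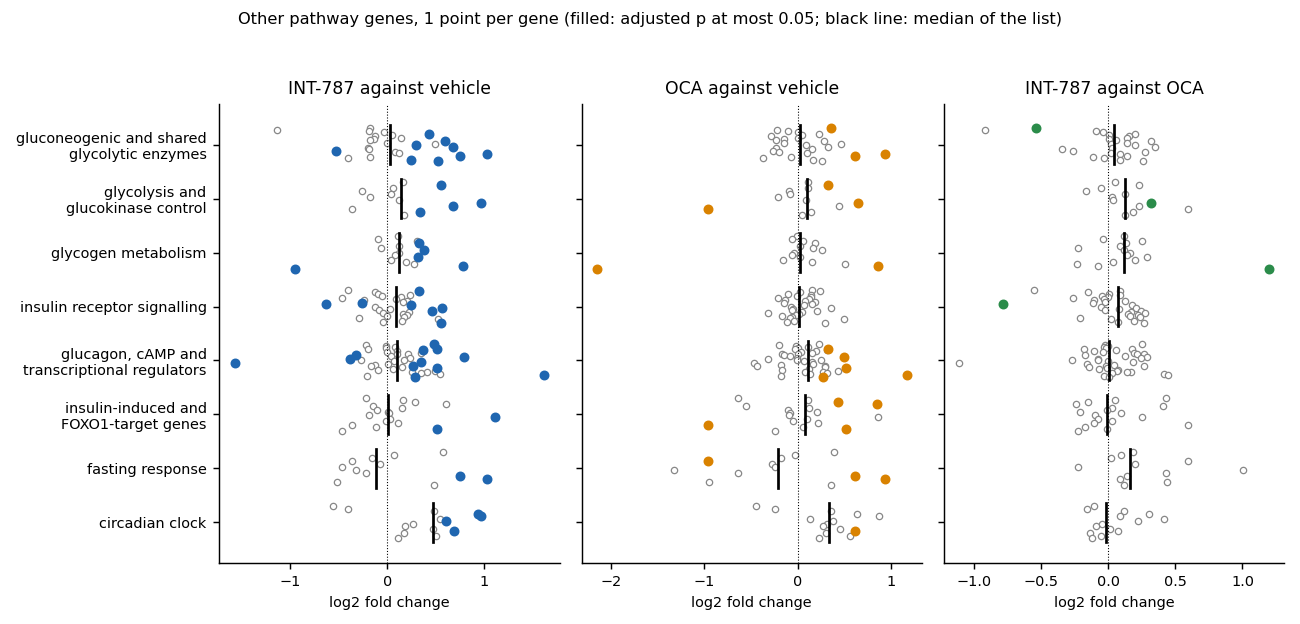
Log2 fold change of each gene of the 8 lists (1 point per gene) in the 3 comparisons, filled where the adjusted p was at most 0.05, with a black line at the median of each list. Filled points lie mostly to the right with INT-787, where 35 of 42 called genes are higher, beside 51.7% of calls over all genes. The medians farthest from 0 are those of the circadian list (0.48 with INT-787 and 0.34 with OCA).

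Cell type markers were examined beside these genes, and the lists were partly the same genes, with *Alb* in both hepatocyte lists, *Sds* also a periportal marker, and *Tat* and *Hnf4a* also hepatocyte markers. Periportal hepatocyte markers, from the zone where gluconeogenic enzymes are highest, rose in 7 of 8 cases with each drug (87.5%, beside 19.6% of all genes for INT-787 and 6.60% for OCA), and their summed level was 50480 to 108800 CPM in vehicle, 91100 to 174700 in OCA, and 81520 to 146100 in INT-787 mice. General hepatocyte markers rose in 5 of 10 with INT-787 and 4 of 10 with OCA, with sums of 78260 to 150800, 113600 to 187500, and 124300 to 217600 CPM for vehicle, INT-787, and OCA. Pericentral markers gave 0 calls of 8 by edgeR in each comparison, with 0, 2, and 1 at an unadjusted p under 0.05 for INT-787, OCA, and the drugs against each other, and DESeq2 on 3 groups called 0, 1, and 1. Their sums were 5237 to 10630 in vehicle, 2828 to 10550 in OCA, and 4196 to 8200 in INT-787 mice. With INT-787, macrophage markers fell in 4 of 8 cases (685 to 967 CPM with vehicle and 424 to 881 with INT-787) and stellate cell and myofibroblast markers in 5 of 8 (1162 to 2114 and 447 to 1073). Endothelial markers fell in 2 of 6 (153 to 314 and 108 to 238), and cholangiocyte markers in 2 of 6 (486 to 802 and 337 to 539). With OCA, edgeR called 0 markers of these 4 cell types, where 1, 1, 4, and 2 had an unadjusted p under 0.05 and neither DESeq2 nor limma-voom called any, with sums of 526 to 1172, 1088 to 2661, 145 to 220, and 444 to 1621 CPM. Lymphocyte markers were near 0 in all groups (2.87 to 14.9 CPM), with 4 of 6 tested and 0 called by edgeR, DESeq2, or limma-voom, and at an unadjusted p under 0.05 stood 0 for INT-787 and 1 for OCA. Between the drugs, with INT-787 against OCA, 3 of 8 macrophage, 3 of 8 stellate cell and myofibroblast, 1 of 6 cholangiocyte, and 1 of 10 general hepatocyte markers were lower and 2 of 8 periportal markers higher, beside 5.38% of all genes. Endothelial and lymphocyte markers gave 0 calls of 6 and 0 of 4 there by edgeR, DESeq2, or limma-voom, with 0 and 0 at an unadjusted p under 0.05. The part of these markers in the changes of the 10 genes and of the other genes named was not tested.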

How the data were processed

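The authors sequenced stranded libraries of polyadenylated liver RNA from 28 mice, and reads were aligned with STAR to GRCm38 per the methods and the labels. The deposited values are raw counts of reads per Ensembl gene, made by the authors without normalization, and the counting program and its use of strand are not given in the sources used here. Of 21935 genes, 21858 matched GENCODE M21 (GRCm38), which gave symbols, coordinates, and exon lengths, and 4615 had 0 counts in every mouse. Groups were taken from the sample labels, and 0 columns belonged to no sample. No pair of libraries in a group appeared to be the same (smallest chi-square per gene 3.0).

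The 12580 genes that passed filterByExpr were scaled by TMM and tested in 1 model of the 3 groups with the quasi-likelihood test of edgeR 4.0.16 (R 4.3.3). P was adjusted over all genes tested (Benjamini-Hochberg), and adjusted p values of genes are from edgeR where no tool is named, with a call at 0.05 or below. Standard errors and 95% intervals come from the same fit. CPM use TMM-scaled totals, and the precision of low genes is limited in vehicle replicate 6, with 6 counts of *Ppargc1a*. The study's own tool, DESeq2 (1.42.0), and limma-voom (limma 3.58.1) were alternatives. Correlations used log2 CPM with a pseudocount of 0.5, 100000 permutations within groups, and scipy 1.17.1. Tables were made in Python 3.11.15 with pandas 2.3.3 and numpy 2.4.6. Other alternatives were DESeq2's size factors, upper-quartile scaling, 2 filters on low counts, robust estimation, 2 groups per fit, the replicate number as a block, thinning to the smallest total, stricter thresholds, and each mouse left out in turn. The pipeline was tested on simulated data.

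The 10 genes, the lists, and the tests were chosen with earlier results of these data known. Named pathway genes are up to 4 per list with the largest change among those called, and others were named after their values were seen.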

Additional observations from a re-analysis of the deposited data

Results flagged for a closer look

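Of 30 sets of values (each of the 10 genes in each of the 3 groups), 1 held a mouse far from the rest of its group by Dixon's test. *Foxo1* in OCA replicate 3 was at 118.8 CPM, compared with 58.9 to 87.3 CPM in the other 8 OCA mice, a gap of 0.526 of the group's range. Chance alone gives such a value in about 1 of 20 sets, so 1 of 30 is not more than chance gives. Leaving out any 1 mouse kept the *Foxo1* difference of OCA from vehicle between 0.21 and 0.35 on the log2 scale, with an adjusted p (edgeR) from 0.254 to 0.558.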

How the results depend on the processing

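Thinning every library to the smallest total gave 992 calls over all genes for INT-787 against vehicle, 403 for OCA against vehicle, and 257 between the drugs, and 20 and 0 calls among the other pathway genes for INT-787 against vehicle and between the drugs. With an adjusted p of at most 0.01, the calls over all genes were 1334, 435, and 247, and over the pathway genes 21, 5, and 1. With an adjusted p of at most 0.05 and a log2 fold change of at least 1 in either direction, they were 363, 154, and 134 over all genes, 4, 2, and 1 over the pathway genes, and 0 and 0 among the 10 genes for each drug against vehicle. DESeq2 fitted on 2 groups gave 1 of the 10 genes and 12 pathway genes between the drugs. Leaving out 1 mouse gave from 443 to 888 calls over all genes between the drugs, the lowest without OCA replicate 8 and the highest without OCA replicate 3. It gave from 10 to 21 pathway genes for OCA, the lowest without OCA replicate 7, and from 1 to 8 between the drugs, where leaving out OCA replicates 3, 6, 7, or 8 or INT-787 replicate 9 moved the count. Without vehicle replicates 5 and 6 together, 9 pathway genes were called for OCA. Upper-quartile scaling left the numbers of calls similar but lowered the share of higher calls from 51.7% to 37.5% for INT-787 against vehicle, from 62.9% to 52.3% for OCA, and from 40.8% to 32.2% between the drugs.

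The replicate number as a block moved 1 count by more than 1.5 times, pathway genes between the drugs, from 4 to 7 calls. The labels do not say whether replicate numbers pair the mice, so what the block stands for is not known. The deviations of same-numbered mice from their group means correlated from -0.249 to 0.472 over 27 pairs (median 0.0904, 13 over 0.1), and those of other pairs across groups from -0.408 to 0.468 over 234 (median 0.0044, 57 over 0.1). Of the named pathway genes, the block ended the INT-787 calls of *Ppp1r3g* (adjusted p = 0.077), *Ppp1r3c* (0.0559), *Per3* (0.0726), *Crtc2* (0.0603), and *Bcl6* (0.112) and the OCA calls of *Tat* (0.0558), *Pck2* (0.082), and *Angptl8* (0.0762). It added calls of *Khk* (0.0115), *Igfbp1* (0.0262), and *Mdh1* (0.0494) for OCA and of *Pdk4* (0.047) between the drugs. With the block 6 of the 10 genes were called for INT-787 and 1 for OCA.

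Signs turned only for differences near 0 between the drugs. *Fbp1* was -0.0236 with upper-quartile scaling, -0.0179 with at least 10 counts in every mouse, and -0.0388 to 0.0442 without 1 mouse. *Foxo1* was -0.0965 after thinning and -0.0148 to 0.151 without 1 mouse. *Irs1* was 0.0236 with limma-voom, 0.158 after thinning, and -0.0773 to 0.0557 without 1 mouse. The cause was not tested. The number of correlated pairs ran from 5 to 8.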
